A study of Mus musculus with 6 samples.

Results

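The genes described here are 10 mouse genes listed as replacement and variant histone genes, not the full set: H2az1, H2az2, H2ax, H2aj, H2aw, H3f3a, H3f3b, H1f0, Macroh2a1 and Macroh2a2. They were chosen by name, with earlier results of these data known. All 10 were found in the RefSeq gene table of GRCm38.p6 (the assembly called mm10), among 21887 protein-coding genes. A peak was given to a gene when its summit, the position of highest enrichment, lay in the gene body or within 1 kb of an end. DNA ends were mapped by BrITL, in which breaks in permeabilized cells are labelled with a biotin-carrying nucleotide, pulled down on streptavidin beads and sequenced. The cells were passage-immortalized mouse embryonic fibroblasts of the genotype ATR+/- that express Bcl-xL, an inhibitor of cell death, so the controls also carry 1 intact allele of the checkpoint kinase gene and the survival protein. They were given DMSO for 18 h, or 1 uM of the inhibitor ATR-45 with 0.2 uM aphidicolin, a blocker of replicative DNA polymerases, for 18 h (the treated cells). For either condition, 2 pull-downs and 1 input were sequenced, and the labels do not say whether the pull-downs came from separate cultures.

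The deposited data were 1 peak list per condition, called on pooled samples, so no value below has a replicate error and no difference between the conditions could be tested. The DMSO list held 6444 peaks and the treated list 491. The lists were not cut at the same strength: DMSO peaks began at a −log10 q of 18.5 and treated peaks at 3.38. Folds, −log10 p and −log10 q are the authors' own values for each peak and were compared only within a list. The lists hold no expression values, so the labelled cell type was not checked.

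Histones wrap DNA into nucleosomes. The bulk of them is made in S phase from clustered genes, whereas replacement variants come from genes that stand mostly alone, are active outside S phase too, and supply histones for chromatin that is rebuilt by transcription, repair and replication. H2A.Z (H2az1, H2az2) marks the nucleosomes beside active promoters, H3.3 (H3f3a, H3f3b) replaces H3 in transcribed chromatin, and H2AX (H2ax) is phosphorylated by ATM, ATR and DNA-PK around double-strand breaks. Linker histone H1.0 (H1f0) accumulates in cells that stop dividing, and macroH2A (Macroh2a1, Macroh2a2) carries a large extra domain and is known from repressed chromatin such as the inactive X chromosome.

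Since most of the peaks lay over gene starts, the promoters are shown first. RefSeq windows of 250 bases before to 50 after the start (GRCm38.p6) existed for 9 of the 10 genes, all but H2ax. The sequences run 5′ to 3′ along the gene and give, for all but H3f3b, the bases before the start that lie outside the gene's own span. Capitals mark, on either strand, CCAAT (read on the other strand as ATTGG), the GC box GGGCGG (read there as CCGCCC), the TATA box TATAAA, and AAACACA (read there as TGTGTTT), an element known from H1 gene promoters. The H2az1 window holds the only treated summit found at these genes. The H2az2, H2aw and H3f3b windows hold DMSO summits, and Macroh2a1 is the contrast without a peak. The whole H3f3b window lies inside the span of a longer gene model, and only 30 bases around its TATA box are shown. These do not reach the H3f3b summit, 81 bp upstream of the start.
H2az1, chr3:137864237-137864486, plus strand: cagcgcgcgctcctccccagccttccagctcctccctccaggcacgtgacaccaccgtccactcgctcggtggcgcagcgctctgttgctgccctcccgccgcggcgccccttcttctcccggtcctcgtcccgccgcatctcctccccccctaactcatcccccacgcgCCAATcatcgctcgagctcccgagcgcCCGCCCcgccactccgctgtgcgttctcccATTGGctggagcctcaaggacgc
H2az2, chr11:6444512-6444693, minus strand: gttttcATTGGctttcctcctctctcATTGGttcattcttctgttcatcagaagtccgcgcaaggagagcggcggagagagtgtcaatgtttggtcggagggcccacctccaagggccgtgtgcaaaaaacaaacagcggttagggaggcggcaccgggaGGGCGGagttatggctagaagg
H2aj, chr6:136807998-136808247, plus strand: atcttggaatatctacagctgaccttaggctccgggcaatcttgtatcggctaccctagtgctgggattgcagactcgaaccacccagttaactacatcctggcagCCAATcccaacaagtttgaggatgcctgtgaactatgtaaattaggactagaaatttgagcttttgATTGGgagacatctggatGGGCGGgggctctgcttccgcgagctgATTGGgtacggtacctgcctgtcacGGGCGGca
H2aw, chr11:58954435-58954684, plus strand: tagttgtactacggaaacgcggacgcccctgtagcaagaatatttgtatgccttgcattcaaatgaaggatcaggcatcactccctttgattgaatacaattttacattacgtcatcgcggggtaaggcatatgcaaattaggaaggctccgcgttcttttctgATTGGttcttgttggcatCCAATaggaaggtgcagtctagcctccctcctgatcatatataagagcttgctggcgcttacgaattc
H3f3a, chr1:180813606-180813855, minus strand: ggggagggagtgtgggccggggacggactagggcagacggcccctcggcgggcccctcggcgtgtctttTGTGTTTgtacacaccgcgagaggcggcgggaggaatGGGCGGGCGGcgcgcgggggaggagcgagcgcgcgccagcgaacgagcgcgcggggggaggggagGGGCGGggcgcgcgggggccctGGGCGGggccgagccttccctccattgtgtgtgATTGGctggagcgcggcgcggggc
H3f3b, chr11:116024514-116024543, minus strand: gtgcagcgtctcTATAAAtatggaggcgtc
Macroh2a1, chr13:56135627-56135800, minus strand: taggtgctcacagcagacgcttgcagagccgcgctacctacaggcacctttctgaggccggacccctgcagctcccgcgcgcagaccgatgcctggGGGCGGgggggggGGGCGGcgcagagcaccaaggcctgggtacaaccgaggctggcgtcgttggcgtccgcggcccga

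Of the 10 genes, 8 held a DMSO summit: H2az1, H2az2, H2ax, H2aj, H2aw, H3f3a, H3f3b and H1f0. Macroh2a1 and Macroh2a2 held 0. Among all protein-coding genes 23.8% held a DMSO summit by the same rule, and among those of 508 to 62005 bp, the length range of the 10 genes, 22.1% did. H2az1 was also the only one of the 10 with a treated summit, against 1.16% of protein-coding genes. The count depended on the flank. In the gene body alone only H3f3a and H3f3b held a DMSO summit, 2 of 10 against 13.2% of protein-coding genes, and H2az1 held no treated summit.

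**Figure D1:**
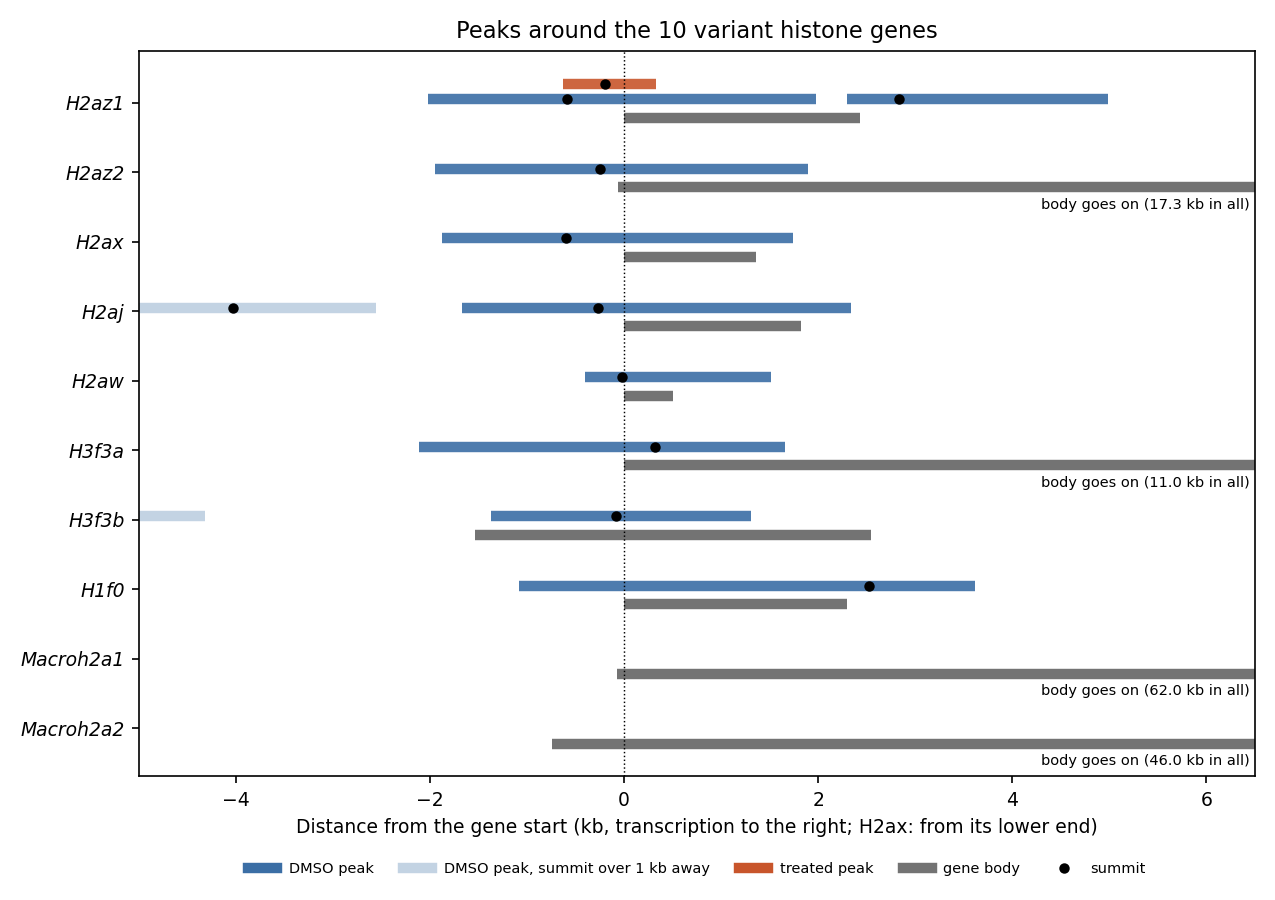
Peaks of both lists around the 10 genes, drawn by distance from the gene start in kb with transcription to the right (H2ax, of unknown strand in the promoter table, from its lower end). Bars are peaks and gene bodies and dots are summits. At 8 genes a DMSO peak covers the start, and the second H2az1 DMSO peak has its summit past the other end. H2az1 alone has a treated peak, and both macroH2A genes have no peak.

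H2az1 encodes the main H2A.Z protein. The gene lies on chromosome 3 from 137864487 to 137866922. Its first DMSO peak spanned 137862460 to 137866463, was 4004 bp wide and had its summit 589 bp upstream of the start. The fold was 21.9 with a −log10 q of 73.4, rank 84 of 6444, and 98.6% of the list had a lower fold. Inverting the caller's formulas for fold and p gives the number of pull-down fragments over a summit, here 89. It was the strongest peak at any of the 10 genes.

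A second DMSO peak at H2az1 began 317 bp beyond the end of the first and spanned 137866781 to 137869477. Its summit lay 403 bp past the other end of H2az1 and 350 bp before the start of Dnajb14, a gene for a membrane co-chaperone. Its fold was 9.51 with a −log10 q of 24.7, below the median of the list (10.99), and 46 fragments lay over its summit. The pair of peaks covered 87.0% of the H2az1 body. Of all protein-coding genes, 2.29% held 2 or more DMSO summits.

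The treated peak at H2az1 spanned 137863857 to 137864817 and was 961 bp wide. It lay wholly inside the first DMSO peak, which was 4.17 times as wide. Its summit was 199 bp upstream of the start, inside the window printed above, and 390 bp nearer to the gene than the DMSO summit. The start of Gm43403, a non-coding RNA gene on the opposite strand, lay 38 bp from the treated summit. The DMSO summit lay inside Gm43403, 211 bp from its other end, so the peaks could belong to either gene. The treated fold was 6.65 with a −log10 q of 7.65 and a −log10 p of 13.2, rank 40 of 491 by fold. It rested on 47 fragments, with a treated background of 5.14 fragments. The DMSO summit had 89 fragments, with a background of 2.88. Both backgrounds are the caller's list-wide term divided by a scaling step that differs between the lists. Fragments were therefore not compared between the lists.

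H2az2 encodes a second H2A.Z protein from chromosome 11 (6427226 to 6444511). Its DMSO peak had a fold of 14.4, a −log10 q of 39.4 and a width of 3844 bp, with 58 fragments at a summit 247 bp upstream of the start. That summit falls near the far end of the printed window, beside a pair of CCAAT matches. No other annotated gene end lay within 1 kb of it. The peak covered 11.3% of the body, its start side alone. The nearest treated summit was 684 kb away.

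H2ax lies on chromosome 9 from 44334715 to 44336077. Its DMSO peak, from 44332836 to 44336452, covered the whole gene and had a fold of 16.1, a −log10 q of 47.2 and 65 fragments. After the first H2az1 peak it was the strongest of the 10 genes. The summit lay 602 bp from the near end of H2ax and 218 bp from an end of Dpagt1, which encodes an enzyme that starts N-linked glycosylation, so to which gene the ends belong cannot be told apart. No treated peak was near: the closest treated summit on the chromosome lay 34146 kb away.

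H2aj and H2aw are small H2A genes. H2aj on chromosome 6 (136808248 to 136810074) lay wholly under a DMSO peak 4006 bp wide, with a fold of 12.9, a −log10 q of 33.3 and 52 fragments at a summit 265 bp upstream of the start. No other gene end lay within 1 kb of that summit. A second DMSO peak, with a fold of 14.9 and its summit 4.04 kb upstream, lay in H4f16, an H4 histone gene, and counted for H2aj only with a flank of 5 kb. H2aw on chromosome 11 (58954685 to 58955192), listed with the synonym Hist3h2a, is 508 bp long and lay wholly under a peak of 1917 bp, the narrowest of the 9. Its fold was 10.5, its −log10 q 23.9, and 42 fragments lay over a summit 22 bp upstream of the start. That summit was also 8 bp from an end of Trim17, a ubiquitin ligase gene, and 151 bp from an end of the pseudogene H2bu1-ps. H2aw lies wholly inside the span of Trim17, so to which gene these ends belong cannot be told apart.

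The pair of H3.3 genes each held 1 DMSO peak at the start. H3f3a on chromosome 1 (180802560 to 180813605) had a fold of 13.2, a −log10 q of 34.5 and a width of 3777 bp, with 53 fragments at a summit 317 bp downstream of the start. H3f3b on chromosome 11 (116021961 to 116026039) had a fold of 15.8, a −log10 q of 45.9 and a width of 2673 bp, with 64 fragments at a summit 81 bp upstream of the start in the promoter table. The H3f3b summit counts as inside the body since the gene table also spans a longer gene model that begins further upstream. Neither summit had another gene end within 1 kb. The H3f3a pseudogenes H3f3a-ps1 and H3f3a-ps2, which resemble the spliced transcript, held 0 summits in either list. A stronger DMSO peak (fold 17.5) lay 4.80 kb from H3f3b inside Unk, a gene for an RNA-binding zinc finger protein.

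H1f0 on chromosome 15 (79028212 to 79030504) was the exception in position among the 8. Its DMSO peak was the widest, 4700 bp, and covered the gene from 1081 bp upstream of the start to beyond its other end. The fold was 12.4, the −log10 q 32.1, and 50 fragments lay over the summit. The summit was 2519 bp downstream of the H1f0 start, 227 bp beyond the far end of the gene, and 143 bp before the start of Gcat, a mitochondrial enzyme gene of threonine breakdown. By position it is thus nearer to the Gcat start than to either end of H1f0.

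The macroH2A genes stood without peaks. The nearest DMSO summit was 381 kb from Macroh2a1 (chromosome 13, 56073622 to 56135626), and 90.3 kb from Macroh2a2 (chromosome 10, 61738640 to 61784604). The nearest treated summits were 8018 and 14252 kb away. At these distances flanks of 5 or 10 kb could add no summit to either gene. These are the longest of the 10 genes, at 62.0 and 46.0 kb. In their length class, 20 to 70 kb, 28.6% of protein-coding genes held a DMSO summit, so most genes of that length also lacked one. Of the 8 shorter genes, 6 of 6 under 5 kb held a DMSO summit, against 12.0% of protein-coding genes, and 2 of 2 of 5 to 20 kb did, against 24.4%. Among peaks at the list-wide background, the lowest fold listed was 8.80 with DMSO and 5.03 with treatment, so ends of lower enrichment at these genes could be present and not be listed.

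The 9 DMSO peaks of the variant genes were of middle to high strength within their list. Their folds ran from 9.51 to 21.9 with a median of 13.2, against 10.99 for the list, and 7 of 9 lay above that median. Their −log10 q ran from 23.9 to 73.4. Their widths ran from 1917 to 4700 bp with a median of 3777 bp, against 2855 bp for the list, and 6 of 9 were wider than it. Fragments at the summits ran from 42 to 89. At 8 of the 9 summits the caller's background term stood at its list-wide floor, 2.32 in the caller's scaled units. The exception was the second H2az1 peak, with 3.

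**Figure D2:**
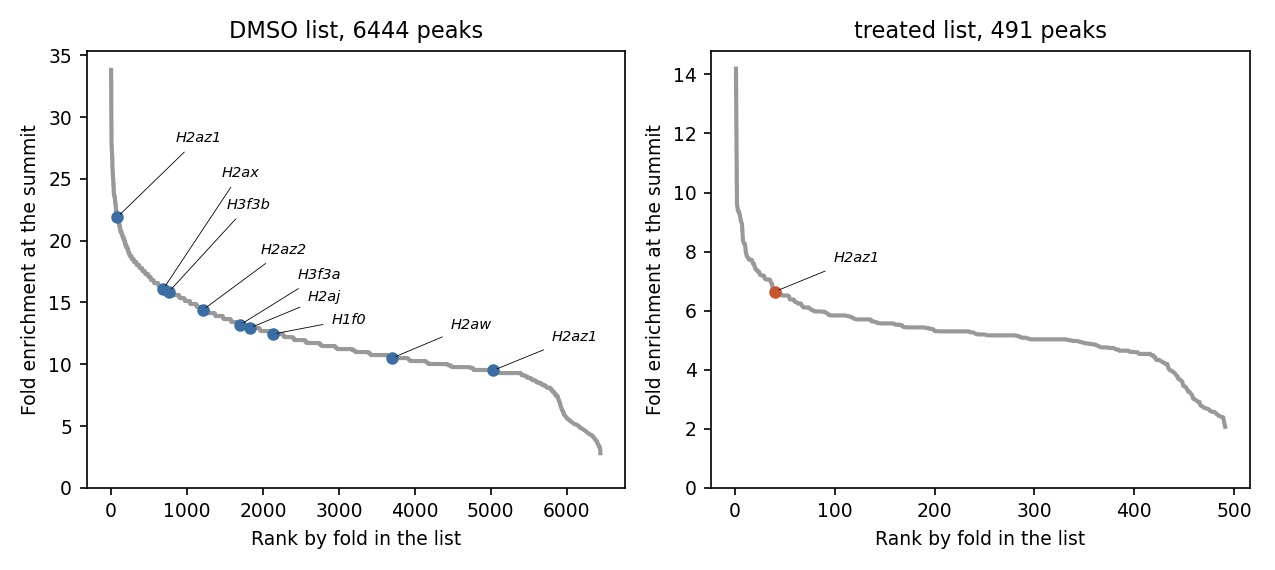
Fold enrichment of every peak against its rank within its list, DMSO at left (6444 peaks) and treated at right (491 peaks), as grey lines, with the peaks of the variant histone genes as points. The first H2az1 peak ranks 84 in the DMSO list and the treated H2az1 peak ranks 40, while the other DMSO points lie between folds of 9.51 and 16.1.

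DMSO summits gathered at the start side of the genes. Of the 9 genes with a promoter entry, 7 had their start inside a DMSO peak, all but the macroH2A genes, against 21.6% of the starts of 17492 protein-coding genes. Of the 8 DMSO summits of these 7 genes, 6 lay within 1 kb of the start (6 of the 9 genes with an entry, against 20.6% of protein-coding genes), 5 of them upstream and 1, that of H3f3a, downstream. Over all protein-coding starts there were 3671 pairs of a start and a summit within 1 kb of it. A summit near several starts counts for each. In 63.8% of the pairs the summit lay upstream, with a median distance of −134 bp, so the upstream side was common to the list. The H1f0 summit and the second H2az1 summit lay at the other end of the gene, each within 350 bp of the start of a neighbour. A summit within 1 kb of that other end was found at 1.37% of protein-coding genes.

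**Figure D3:**
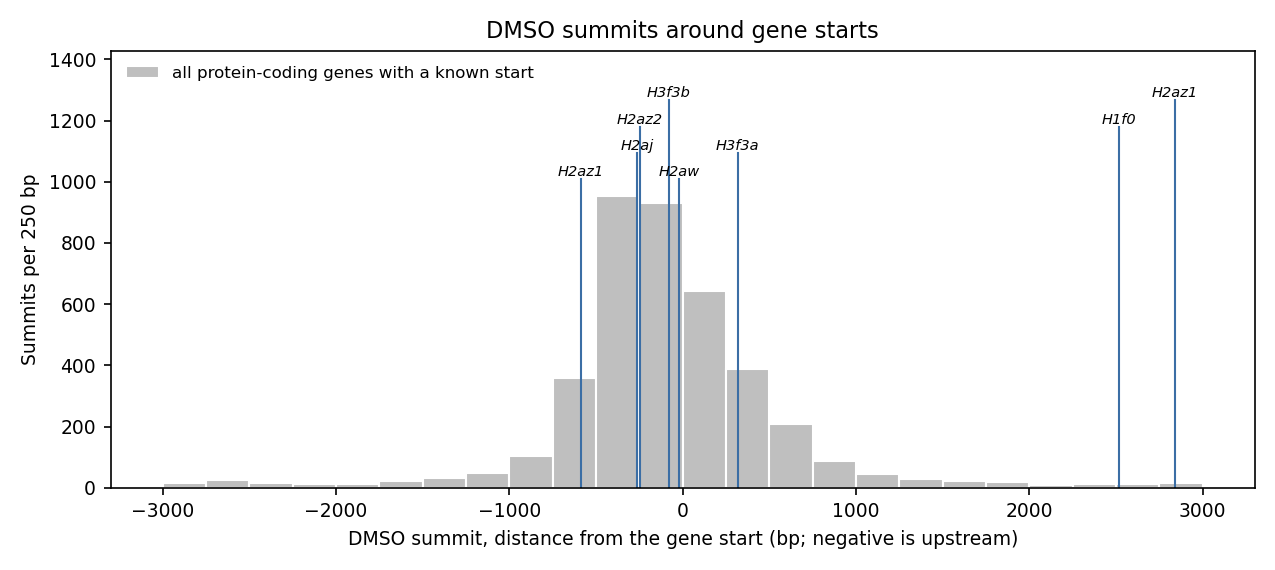
Number of DMSO summits per 250 bp by distance from the start of protein-coding genes in bp (grey bars, negative upstream), with the summits of the variant histone genes as labelled lines. In the bars a summit near several starts counts for each. Of the labelled summits 6 fall under the central mass, while H1f0 and the second H2az1 summit lie 2519 and 2838 bp downstream.

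Base composition and short motifs of the starts were described for the 9 genes with a window. Their median was 65.7% G and C with 27 CpG dinucleotides in 300 bases. Windows whose start lay in a DMSO peak had a median of 64.3% and 25 CpG (3778 promoters), and the other windows 53.7% and 8 CpG. Macroh2a1, with 74.3% and 37 CpG, and Macroh2a2, with 65.7% and 23 CpG, were as rich in CpG as genes with a peak, so this feature did not separate the genes with and without one. The lowest was H2aw, with 43.7% and 14 CpG, which did hold a peak.

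CCAAT, the element bound by NF-Y, was found in 7 of 9 windows, against 39.0% of all protein-coding promoters and 45.9% of those whose start lay in a DMSO peak. H2az2 and H3f3b held 4 matches each and H2az1 and H2aj 3 each. H1f0 and Macroh2a1 held 0, and the single Macroh2a2 match lay after the start. GGGCGG, the GC box bound by Sp factors, was found in 6 of 9, against 46.3% of promoters and 76.6% of those in a DMSO peak. H3f3a held 6 matches, some of them overlapping each other, and Macroh2a1 held 2, while H3f3b held none and was the only one of the 9 with TATAAA (13.3% of promoters). For TATAAA only exact matches were counted, so the letters tatataa in the H2aw window were not. AAACACA was found in H3f3a alone (6.13% of promoters), and not in the H1f0 window. The other 6 motifs searched, TGACGTCA, TGACGCAA, TGANTCA, TTTCGCGC, TTTGGCGC and TTTCCCGC, were in 0 of 9 windows, and each was in at most 7.08% of promoters. The H3.3 genes thus differed in the letters searched for, a GC-box-rich window in H3f3a and a CCAAT and TATA window in H3f3b, and each held 1 DMSO peak at the start, with folds of 13.2 and 15.8.

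In the whole list, from a fold of 8 upward, the share of DMSO peaks that overlapped a treated peak was higher at higher folds, from 0.294% to 53.0%. Of the 9 DMSO peaks 1 overlapped a treated peak, against 2.90% of the list. It was the first H2az1 peak, the strongest of the 9, and among the 92 DMSO peaks with a fold at least as high, H2az1 included, 52.2% overlapped a treated peak. The peaks of the other 7 genes had folds from 10.5 to 16.1, a range in which 0.871% of 3216 DMSO peaks overlapped one. H2ax, the strongest of them, lay among peaks with folds of 16 to 18, where 24 of 382 did. Like these peaks, most DMSO peaks of their strength overlapped no treated peak. In the caller's scaled units the list-wide background was 2.26 with treatment and 2.32 with DMSO. The higher treated background in fragments follows from the scaling step, the coverage given to 1 fragment (0.439 against 0.805). Fewer ends at these genes and ends too weak to be listed cannot be told apart.

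**Figure D4:**
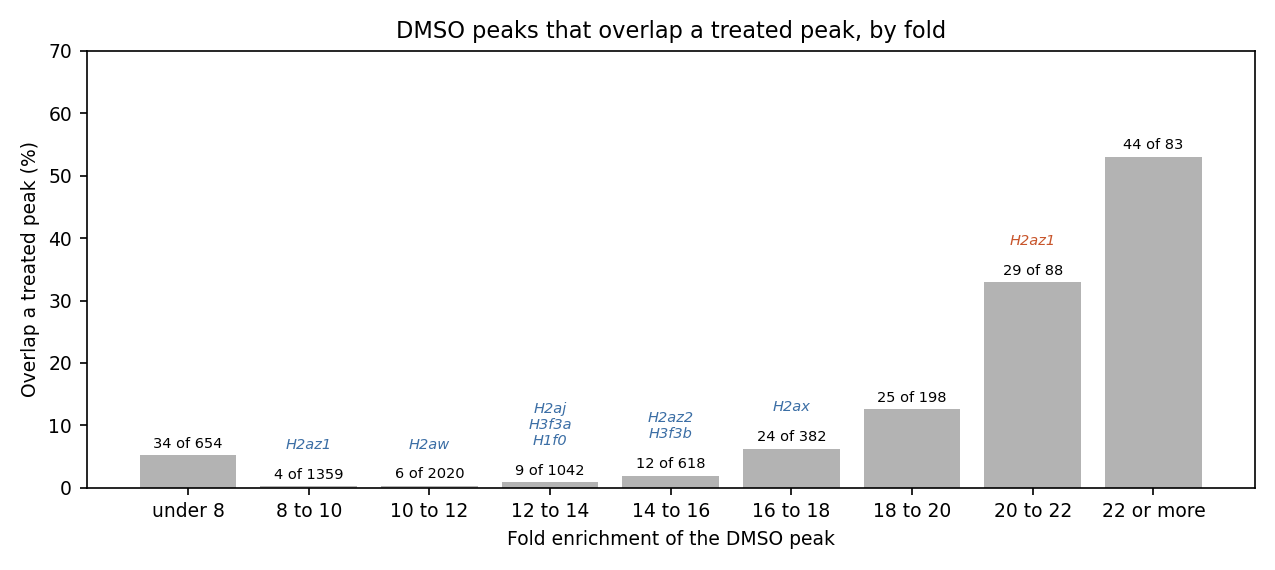
Share of DMSO peaks that overlap a treated peak by at least 1 bp, in %, by the fold of the DMSO peak, with the number of peaks over each bar. Names mark the bins of the variant histone peaks, in red where the peak overlaps a treated one; H2az1 stands where 29 of 88 peaks do, the others where at most 6.28% do.

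Genes that deposit, exchange, chaperone or read these variants, and 4 further histone variant genes, were examined from lists. These lists were chosen by name, with earlier results of these data known. Of these 42 matched genes 26 held a DMSO summit, against 23.8% of protein-coding genes, and 0 held a treated summit. In the gene body alone 12 of the 42 held a DMSO summit, against 13.2% of protein-coding genes. Other genes near these summits were not looked up, so a peak counted here could belong to a neighbour. Of the H3.3 deposition genes 6 of 8 held a DMSO summit. The exceptions were Ubn1, a subunit of the HIRA complex, and Atrx, the remodeller that partners Daxx. Daxx, the H3.3 chaperone, held 2, with folds of 16.8 and 15.6, both outside the gene body, 334 and 461 bp from its ends. Of the H2A.Z exchange genes 7 of 11 did, with folds from 15.8 to 19.5. They included Actl6a, an actin-related subunit (19.5), Ep400 (18.5) and Srcap (17.5), the motor subunits that insert H2A.Z, and Ruvbl2, an ATPase of these complexes (17.3). Vps72, Dmap1, Ruvbl1 and Yeats4 held 0.

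Of the genes that phosphorylate, modify or read H2AX, 6 of 10 held a DMSO summit, against 23.8% of protein-coding genes. Their median length was 90681 bp, and 30.6% of protein-coding genes over 70 kb held a DMSO summit. Mdc1, which binds phosphorylated H2AX, had the peak of highest fold over all these lists, 23.1, with a width of 8835 bp. The summit of that peak lay 69 bp outside the gene. The peak ranked 53 of 6444, above the first H2az1 peak, yet overlapped no treated peak. Atm (11.7) and Prkdc, which encodes the DNA-PK catalytic subunit (9.53), held weaker peaks, and Atr, Rnf168, Trp53bp1 and Eya1 held 0. Of the general histone chaperones 7 of 9 held a DMSO summit, against 23.8% of protein-coding genes. The exceptions were Ssrp1 and Supt16, the subunits of FACT. Of the 4 further variant genes, Cenpa, H1f10, H1f7 and H1f8, 0 held a summit in either list. Cenpa encodes the centromeric H3, H1f10 a linker histone, and H1f7 and H1f8 linker histones of germ cells.

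The class most like the variant genes is that of the clustered histone genes, of which 49 of 62 held a DMSO summit, 79.0%, beside 8 of 10 for the variants. Their 47 DMSO peaks had a median fold of 12.2 and a median width of 1577 bp, against 13.2 and 3777 bp for the variants. The clustered genes have a median length of 491 bp and lie side by side, so that 1 peak often counts for several genes. This difference was not tested, since genes are not replicates of a condition. The clustered genes were picked by their names, so H2aw (synonym Hist3h2a, peak width 1917 bp) was counted among the variants. The clusters, too, held 1 treated peak, with a fold of 7.05 and a −log10 q of 8.51, between H2ac19 and H3c15. It was 120 bp wide and met the DMSO peak of fold 32.8, rank 2 of its list. That DMSO peak was 187 bp wide, against a list median of 2855 bp, and its summit lay at the same base as the treated summit. Other clustered genes with high DMSO folds were H2ac24 and H4c18, which share a peak of 18.5 that was 175 bp wide. H1f4 and H2bc6 share one of 18.3 that was 3995 bp wide.

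**Figure D5:**
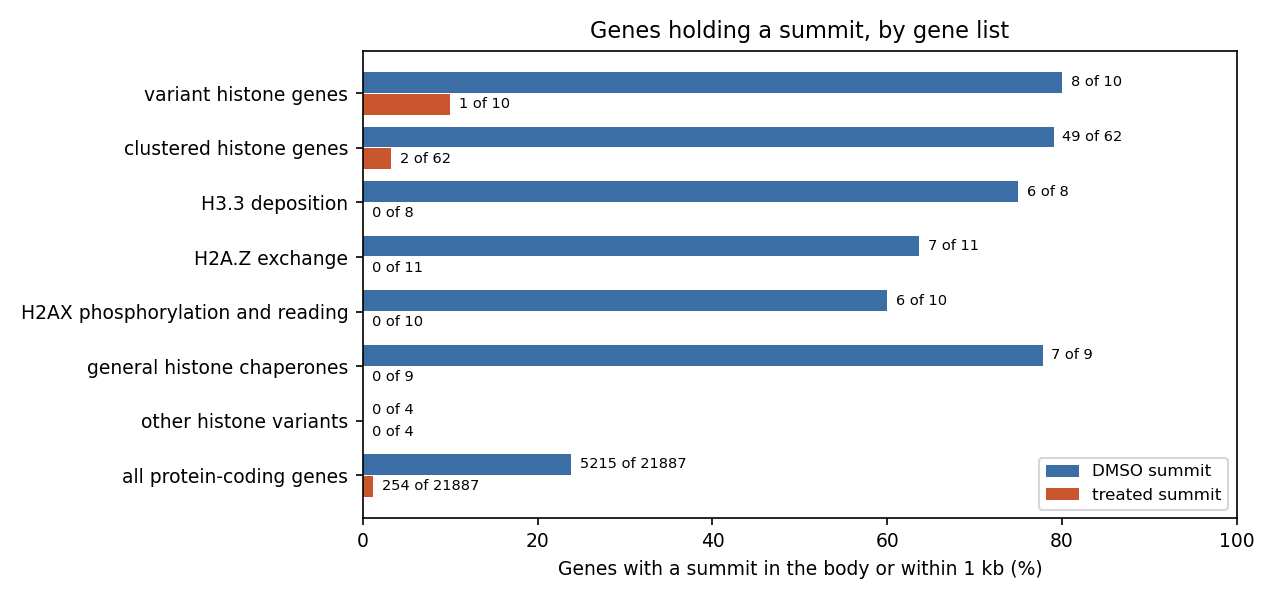
Share of genes with a summit in the body or within 1 kb, in %, for the DMSO list (blue) and the treated list (red), by gene list, with counts beside the bars. Of the variant histone genes 8 of 10 hold a DMSO summit and 1 a treated summit, beside 5215 and 254 of 21887 protein-coding genes.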

How the data were processed

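The deposited data were 2 narrowPeak lists, each pooling 2 pull-down samples against 1 input sample, per the peak names, so they hold no value per sample and no read depth. Per the submitters' processing notes the build was mm10, and MACS2 2.1.0, Picard 1.141, SAMtools 0.1.19, STAR 2.5.2a and bcl2fastq 2.17.1.14 were used, with no role stated. How peaks were selected for deposit is not stated there. The authors' caller gave each peak a fold enrichment (a ratio), a −log10 p and a −log10 q, and the deposited score is the whole part of 10 times −log10 p.

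Fragments at summits were recovered by inverting the caller's formulas (the fold adds 1 to coverage and to background, and p is a Poisson upper tail), with coverage within 0.02 of a whole multiple of a scaling step. This solved 94.7% of DMSO and 96.5% of treated peaks, all peaks of the variant genes included. It was tested on simulated data, as were gene assignment and motif search. The background term has a floor and is not the input at the summit. No test was run on pooled samples: shares stand beside those of all protein-coding genes.

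By rule, all 10 genes were described, with other genes whose end lies within 1 kb of a summit, and, of other lists, genes with a treated summit and the 5 with the DMSO peaks of highest fold. Further genes were named after their values were seen. The genes and lists were chosen with earlier results of these data known, and length and fold classes after the values were seen. The planned comparison of proteins was not run. The software was pandas 2.3.3, SciPy 1.17.1 and NumPy 2.4.6 under Python 3.11.15.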

Additional observations from a re-analysis of the deposited data

How the results depend on the processing

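With the gene body alone, 2 genes held DMSO summits (2 summits), 0 held treated summits (0 summits) and 12 pathway genes held a DMSO summit. At −log10 q of at least 50, H2az1 alone held a DMSO summit (1 gene, 1 summit, against 2.83% of protein-coding genes), as did 7 pathway genes. For the variant genes both follow from the construction, since 7 of 9 summits lie outside the body and 8 of 9 have a lower −log10 q. Over the gene sets, the other 36 of 44 recomputed counts and medians stayed within 1.5 times, or within the SD of the folds (3.66), among them those with flanks of 5 and 10 kb and with whole-peak overlap. Of 120 recomputed counts for single genes 22 moved further. H2aj and H3f3b went from 1 to 2 DMSO summits with flanks of 5 and 10 kb, and H2ax from 1 to 2 with 10 kb. At or above the median fold, H2aw and the second H2az1 peak dropped out. No paired analysis was possible because each list pools its samples. Library depth is unknown, and no peak whose coverage was solved had under 35 fragments.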
